A study of Sus scrofa with 28 samples.

Results

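The mitochondrial ribosomal protein genes were taken as the protein-coding genes of the RefSeq pig annotation (Sscrofa11.1) whose symbols begin with MRPL or MRPS. The annotation holds 76 of them, and 74 lie on the 19 chromosomes of the peak list, 47 with an MRPL and 27 with an MRPS symbol, spread over 17 of these chromosomes. They are 74 of the 17150 genes with a symbol on those chromosomes. The others, MRPL41 and MRPS2, lie on unplaced sequence and were not analysed here. A member was called listed in a library when the centre of a peak lay within 1000 bp of either end of the gene. Strand was not used here, so a start and a far end of a gene are not told apart.

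Mitochondrial ribosomal proteins are made from nuclear genes, translated in the cytosol and imported into mitochondria. There they join ribosomal RNAs from mitochondrial DNA in a large subunit (MRPL symbols) and a small subunit (MRPS symbols). The assembled ribosome makes the respiratory chain and ATP synthase subunits that mitochondrial DNA encodes. Hepatocytes, the main cells of the liver, hold many mitochondria. Genes of this kind are housekeeping genes, and their promoters are commonly open and often shared with a neighbouring gene that runs the other way.

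The data are ATAC-seq peak lists, in which a transposase marks open chromatin, from liver of female Zlotnicka White pigs, with day 180 given for every library. There were 28 libraries in 4 groups of 7: high fat content or low fat content, each with the number 200 or 600. What the number stands for is not stated in the labels, and it goes with the sequencing lane in the library names, so number and lane cannot be told apart. The fat groups stand under a tag called shear force. All animals shared housing and feed, and all samples were dissociated liver cells that had been frozen before the libraries were made, so every group shares these steps. A 200 and a 600 library of the same fat group, replicate and title number were taken as 1 animal, 14 animals in all, an assumption since animals are not named. Nothing else in the labels says that replicates came from separate animals, so p-values measure the spread between these libraries.

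The libraries held 39 to 17652 peaks each, 84192 in all, and 15 of them held at least 1000. No read counts were used, so depth is unknown, and a gene that is not listed may be closed, thinly sequenced or removed before deposit. In bulk tissue a weaker peak can come from fewer cells of a type or from less open chromatin per cell, which cannot be told apart. Of 14 hepatocyte marker genes 11 were listed at an end, led by HPX in 11 libraries, FOXA1 in 9, FGG and TTR in 8 and ALB in 7, while APOB, CPS1 and HNF4A were not listed. Of 9 endothelial and stellate and 5 cholangiocyte markers 0 were listed. Of 9 macrophage markers 1 was listed, CD14 in 6 libraries. Of 8 lymphocyte markers 2 were listed in 1 library each, and of 5 erythroid markers 1, GATA1 in 2 libraries. Among the members, 8 libraries listed none, and the largest of these held 635 peaks.

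Mitochondrial ribosomal protein genes were listed at an end more often than genes at large. In at least 1 of the 28 libraries 56 of the 74 members were listed, 75.7%, against 51.3% of all 17150 genes with a symbol, a difference of 24.3 percentage points. Without high fat 200 replicate 7, the 1 library that listed 9 of these members, the shares were 63.5% and 48.8%, a difference of 14.7 points. The gap was narrower for repeated listing. In at least 3 libraries 30 members were listed, 40.5% against 32.4% of genes, and in at least 7 libraries 19 members, 25.7% against 16.4%. In at least 14 libraries 2 members were listed, MRPS28 and MRPL50, 2.70% against 2.26%. The median was 2 libraries per member and 1 per gene, and the highest was 17 against 23. Of the 74 members, 16 were listed in 1 library, 10 in 2 libraries and 18 in none. Of the 17150 genes, 2144 were listed in 1 library, 1112 in 2 libraries and 8344 in none. These shares describe the genes of 1 annotation, which are not replicates, and carry no test.

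**Figure D1:**
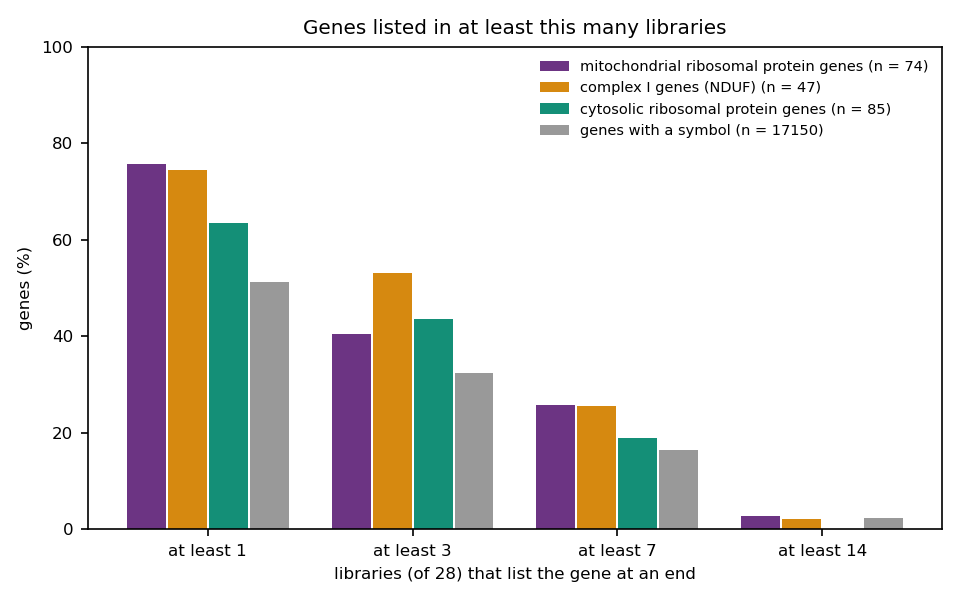
Bars give the percentage of genes (vertical axis) listed at a gene end in at least 1, 3, 7 or 14 of the 28 libraries (horizontal axis), for mitochondrial ribosomal protein genes, complex I genes, cytosolic ribosomal protein genes and all genes with a symbol. The member bars fall from 75.7% to 2.70%, and those of all genes from 51.3% to 2.26%.

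Both subunits took part. MRPL genes were listed in 37 of 47 cases (78.7%) and MRPS genes in 19 of 27 (70.4%). Members were also grouped by origin, a grouping chosen after the data were seen. Of 41 proteins with a counterpart in bacterial ribosomes 31 were listed (75.6%), and of 27 proteins found in mitochondrial ribosomes but not in bacterial ones 20 (74.1%). In at least 3 libraries, however, 19 of the former (46.3%) and 7 of the latter (25.9%) were listed. The 6 members left unclassed held 5 listed genes. NDUF genes, for subunits and assembly factors of respiratory complex I, were listed at 74.5% (35 of 47), close to the members. Genes for proteins of the cytosolic ribosome were listed at 63.5% (54 of 85). In at least 3 libraries the order was different, with 53.2% of the NDUF genes and 43.5% of the cytosolic genes against 40.5% of the members.

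Members were shorter than other genes and had closer neighbours. For listing in at least 1 library the members stood above genes with and without a neighbour and at every length. The median length was 9503.5 bp against 23489 bp. Another gene end lay within 1000 bp of an end in 42 of the 74 members, 56.8% against 36.2% of all genes. Members with such a neighbour were listed at 78.6% (33 of 42), while genes with one stood at 62.4%. Members without one were listed at 71.9% (23 of 32), while genes without one stood at 45.1%. For repeated listing this did not hold on both sides. In at least 3 libraries 54.8% of members with a neighbour were listed against 41.0% of such genes, but 21.9% of members without one against 27.5% of such genes. By length, members under 5000 bp were listed at 76.2% against 36.1% of genes of that length. Those of 5000 to 20000 bp were listed at 71.9% against 50.7%, and those of 20000 bp or more at 81.0% against 56.4%.

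The excess was seen mostly in the larger libraries. In 11 of the 15 libraries with at least 1000 peaks the members' share was above that of all genes. It was also above in 4 of the 13 smaller ones. There genes stood at 2.61% or less and 1 member is 1.35%, so the direction can turn on 1 member and says little. High fat 600 replicate 6 and low fat 600 replicate 2 listed 0 members and 0 genes. In high fat 200 replicate 7 the members stood at 56.8% and genes at 35.4%, and in high fat 200 replicate 1 at 52.7% and 39.9%. In high fat 200 replicate 3, with 6288 peaks, the members stood lower, at 6.76% against 8.81%. When each of the 15 larger libraries was cut to its 1000 strongest peaks, the members were above all genes in 4 libraries and below in 11. Of the members, 11 were then listed in at least 1 library, 14.9% against 14.4% of genes. A milder filter on strength left most of the difference. With peaks above the median strength of all 200 or all 600 peaks, 55.4% of members against 36.3% of genes were listed in at least 1 library, a difference of 19.1 points.

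**Figure D2:**
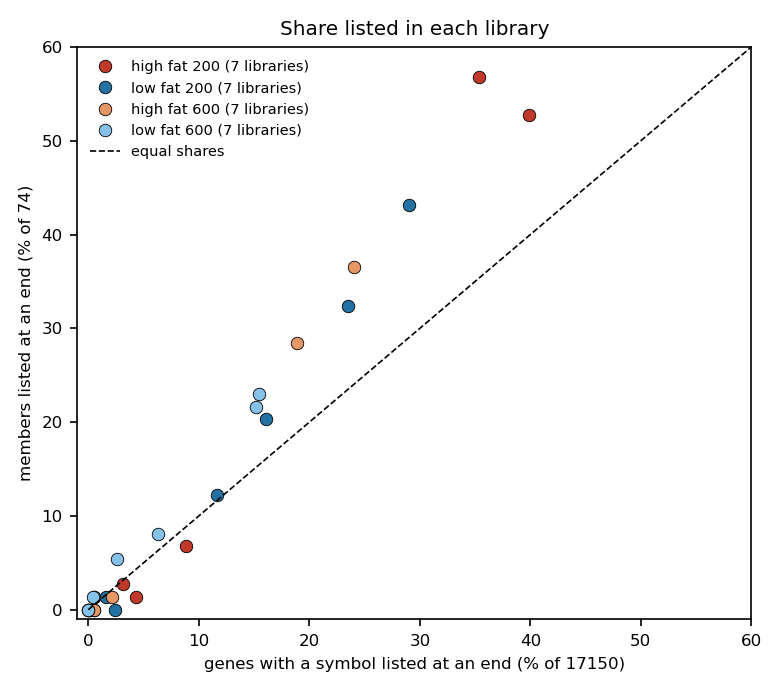
Each point is 1 of the 28 libraries, with the percentage of all genes with a symbol listed at an end on the horizontal axis and the percentage of the 74 members on the vertical axis, coloured by group; the dashed line marks equal shares. Libraries with high shares lie above the line, up to 56.8% of members against 35.4% of genes, and libraries with few peaks lie near or below it.

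Among large-subunit genes the 12 listed in most libraries were MRPL50, MRPL17, MRPL18, MRPL22, MRPL39, MRPL44, MRPL1, MRPL30, MRPL34, MRPL46, MRPL47 and MRPL55. MRPL50, a protein without a bacterial counterpart, was listed in 14 libraries. The strength of a peak is given as deposited −log10 p, and where a library held several peaks at a gene the strongest was used. In the high fat 200 libraries MRPL50 had 8.31 in replicate 1, 3.61 in replicate 4, 4.53 in replicate 5 and 7.84 in replicate 7. In the low fat 200 libraries it had 7.89, 4.49, 4.83 and 7.43 in replicates 1, 4, 6 and 7. The 600 libraries gave 4.57 and 5.61 in high fat replicates 1 and 7, and 4.56, 3.22, 3.79 and 4.30 in low fat replicates 1, 4, 6 and 7. Replicates 1 and 7 were the strongest in each group, and the fat groups overlapped. The MRPL50 peaks covered chr1:243106128-243107521, with a median centre 149.25 bp outside the gene and 69.25 bp from the end of ZNF189, a zinc finger gene.

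MRPL17 and MRPL18 were listed in 13 libraries each, both with bacterial counterparts. MRPL17 ran from 3.11 to 7.06 with a median of 4.50, and its peaks (chr9:3074994-3076736) lay 70.5 bp from its own end. MRPL18, a protein of the central protuberance of the large subunit, ran from 3.42 to 6.54 with a median of 4.44. Its region, chr1:7588699-7590675, was centred 252.25 bp inside the gene and 355.25 bp from the end of TCP1, which encodes a subunit of the cytosolic chaperonin. MRPL18 was the leading member that was listed in more 600 than 200 libraries, 7 against 6.

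MRPL22, MRPL39 and MRPL44 were listed in 9 libraries each. MRPL22 encodes a protein that lines the exit tunnel for the growing chain. Its region, chr16:68278462-68279952, was centred 56.5 bp from the end of GEMIN5, a factor in the assembly of spliceosomal particles, and 174.5 bp from its own end. MRPL39 (chr13:189165207-189166271) and MRPL44 (chr15:125731921-125733043) had no other gene end within 1000 bp of the region's centre. MRPL44, which carries a ribonuclease III-like fold and is mutated in a human infantile cardiomyopathy, was centred 47.0 bp inside its end. Its peaks were strongest in high fat 200 replicate 1 at 6.55 and weakest in low fat 600 replicate 6 at 3.39. The peaks of MRPL39 lay 504.5 bp inside the gene.

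The other leading large-subunit genes were listed in 7 libraries each. MRPL1, whose bacterial counterpart forms the mobile L1 stalk, had a region of its own at chr8:73304474-73306326, 150.5 bp outside the gene. MRPL30 shared its region with MITD1, MRPL47 with NDUFB5, a complex I subunit gene, and MRPL55 with GUK1, the gene of guanylate kinase. Their regions were centred 48.0, 51.5 and 59.0 bp from the member's own end. MRPL34 was listed at both ends, in 6 libraries at one (chr2:60378498-60379583) and in 4 at the other, where the centre lay 64.0 bp from the end of DDA1.

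Of the remaining large-subunit genes listed in at least 3 libraries, MRPL15, MRPL2 and MRPL32 were listed in 6, and MRPL24, MRPL35 and MRPL51 in 5. MRPL2 encodes a protein beside the peptidyl transferase centre. Most of its listings came from a region 18.5 bp from the end of KLC4 and 900.5 bp from its own end. The MRPL32 region lay 1.75 bp from the end of PSMA2, a proteasome subunit gene, and that of MRPL15 lay 87.25 bp from LYPLA1. MRPL35 lay beside IMMT, a gene for the complex that shapes mitochondrial cristae, at 242.75 bp, and MRPL51 beside NCAPD2, a condensin gene, at 229.5 bp. Listed in 2 libraries were MRPL3, MRPL14, MRPL16, MRPL19, MRPL23, MRPL36, MRPL37, MRPL42, MRPL45 and MRPL57.

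Among small-subunit genes the 12 listed in most libraries were MRPS28, MRPS18B, MRPS18C, MRPS36, MRPS6, MRPS11, MRPS35, MRPS9, MRPS16, MRPS26, MRPS14 and MRPS5, all those listed in at least 3 libraries. MRPS28 led the whole set with 17 libraries. In the high fat 200 libraries it had 8.97 in replicate 1, 4.15 in replicate 3, 4.35 in replicate 5 and 7.47 in replicate 7. In the low fat 200 libraries it had 6.89, 4.36, 4.21, 6.08 and 8.62 in replicates 1, 4, 5, 6 and 7. The high fat 600 libraries gave 7.14 and 7.17 in replicates 1 and 7, and the low fat 600 libraries 5.92, 3.45, 3.67, 3.57, 4.90 and 7.32 in replicates 1, 3, 4, 5, 6 and 7. The fat groups overlapped in strength, and replicates 1 and 7 were again high in each group. The region, chr4:56607179-56608715, was centred 340.5 bp inside the gene, and the next gene end, of TPD52, lay 4390.5 bp away.

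MRPS28 also ranked high within most libraries that listed it. Ranked among all gene-end peaks of its library, its median percentile was 94.7, from 52.2 to 99.3. It was among the 1000 strongest peaks in 12 of the 15 larger libraries, against 10 for MRPL50, 5 for MRPL18, 4 for MRPL17 and 2 for MRPL44. Of the 19 members listed in at least 7 libraries, 10 had a median percentile above 50, and the lowest median was 38.4. Over all 265 listings of members, 18 stood at or above the 90th percentile (6.79%). By definition at least 10% of all gene-end peaks of a library stand there.

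MRPS18B was listed in 11 libraries, from 3.30 to 6.68. It and MRPS18C, listed in 9, are relatives of 1 bacterial protein, while the third relative, MRPS18A, which sits in the large subunit despite its symbol, was not listed. MRPS18B was centred 335.5 bp outside the gene at chr7:23165353-23166760. MRPS18C was centred 56.0 bp from the end of HELQ, a helicase gene, and 546.0 bp inside itself. MRPS36, listed in 9 libraries, encodes a protein now known as part of the 2-oxoglutarate dehydrogenase complex. MRPS35, listed in 7, had a region without a neighbouring gene end, centred 82.0 bp inside the gene. MRPS6, also in 7, had its region 196.5 bp from the end of SLC5A3 and 529.5 bp from its own.

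MRPS11 and MRPL46 shared 1 region, chr1:191321100-191322489, in the same 7 libraries, so that 1 set of peaks counts for a gene of each subunit. Their ends lay 39 bp apart. The region was in high fat replicates 1 and 7 under both numbers, in low fat 200 replicate 7 and in low fat 600 replicates 1 and 7. MRPS16, mutated in a human defect of mitochondrial translation, and MRPS9 were listed in 5 libraries, MRPS26 in 4, and MRPS14 and MRPS5 in 3.

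**Figure D3:**
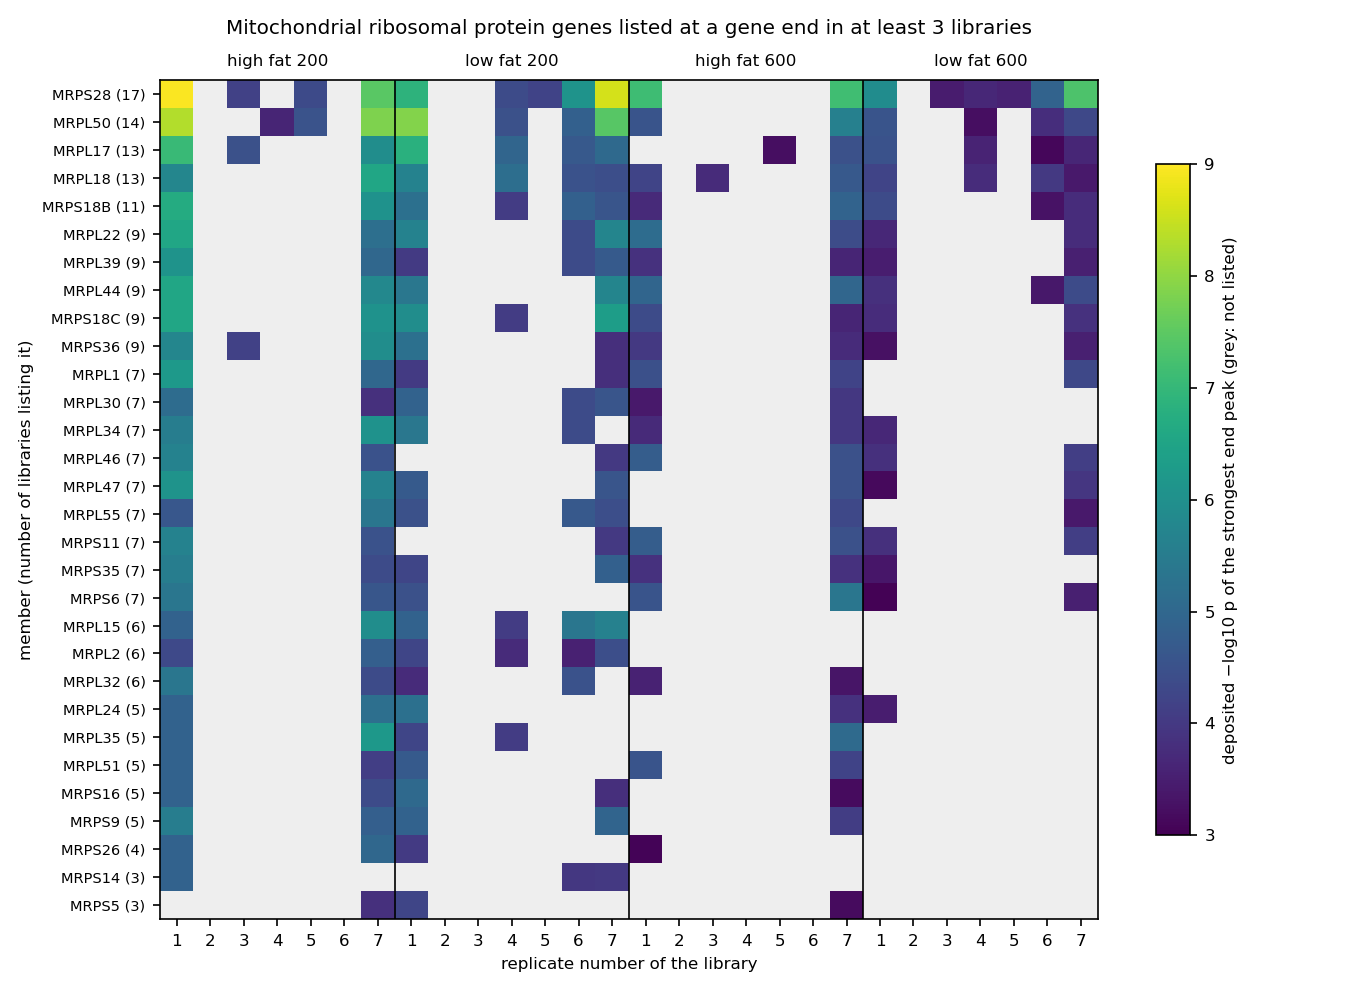
Each line is 1 of the 30 members listed at an end in at least 3 libraries, with its number of libraries, and each column is 1 of the 28 libraries, by group and replicate; colour gives the deposited −log10 p of the strongest end peak and grey marks no listing. Replicates 1 and 7 of every group hold many of the filled cells, MRPS28 reaches 8.97, and the MRPL15 and MRPL2 lines are empty in all 600 libraries.

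Some regions at member ends lay nearer to another gene. The end peaks fell into 60 regions for 56 members, with the region shared by MRPS11 and MRPL46 counted for each. Of these regions, 31 had another gene end within 1000 bp of their median centre. In 19 regions that other end was nearer than the member's own, and for 16 members this held for every region. Regions of all genes were not counted this way, so these numbers are not read as a trait of the members. Members were listed at 1 end in 52 cases and at both in 4. Of these 4, 3 had separate regions at the ends. The other, MRPL57, is a gene of 984 bp whose 1 region lay within 1000 bp of both. Regions lay close to the end, with a median distance of 118.875 bp, and 44 lay within 250 bp. Of the 60 regions, 26 were centred inside the gene and 19 were seen in 1 library.

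Counted peak by peak, 267 peaks lay at member ends, 175 in 200 and 92 in 600 libraries. Their median distance from the nearest member end was 163.5 bp, and 65.9% lay within 250 bp. All gene-end peaks were measured to the nearest end of any gene with a symbol, with 132.5 bp and 72.4%. Inside the gene lay 49.4% of member peaks and 57.1% of all, by the same measures. These measures are unlike, since a peak may be nearer to another gene than to the member, so no difference is read from them. The median width was 544 bp in 200 libraries against 585 bp for all gene-end peaks, and 998.5 bp against 1104 bp in 600 libraries. The median −log10 p was 4.37 against 4.43. Of the 12 libraries with at least 5 member peaks, the member median was lower in 8, equal in 3 and higher in 1, with differences from -0.38 to 0.17. Overlapping regions and shared peaks tie these values to each other, so they are given without a test.

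**Figure D4:**
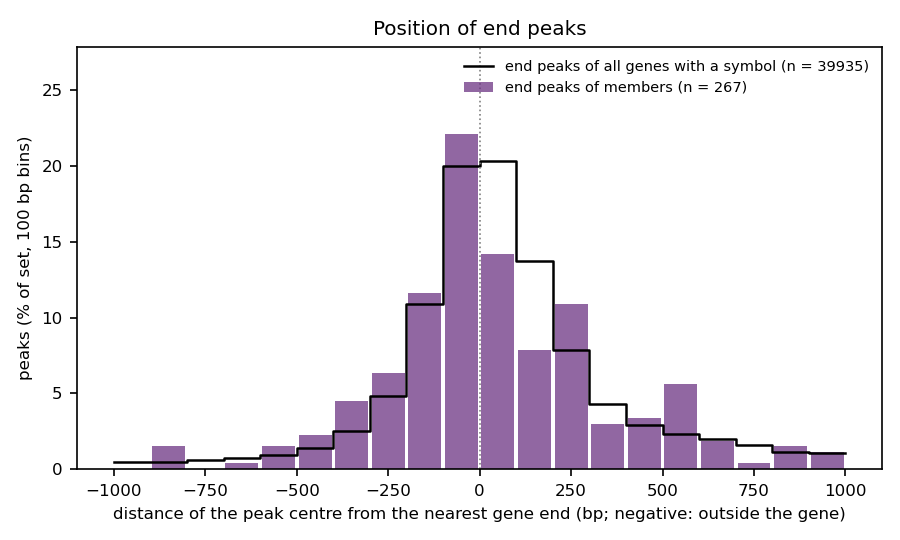
Bars give the percentage of the 267 member end peaks, and the line that of all gene-end peaks, in bins of 100 bp. The horizontal axis is the distance of the peak centre from a gene end in bp, and negative values lie outside the gene. For the bars this is the nearest member end, and for the line the nearest end of any gene with a symbol. Both distributions centre on the gene end. By these unlike measures 49.4% of member peaks and 57.1% of all lie inside the gene.

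No end peak was found for 18 members: MRPL4, MRPL9, MRPL11, MRPL13, MRPL27, MRPL33, MRPL38, MRPL49, MRPL53, MRPL54, MRPS7, MRPS15, MRPS17, MRPS18A, MRPS21, MRPS22, MRPS27 and MRPS30. MRPL11 belongs to the stalk base where translation factors bind, and MRPS22 is mutated in a human defect of mitochondrial translation. Of these 18, 4 had a peak in the body of the gene. MRPS30, a protein that sits in the large subunit despite its symbol, had one in 11 libraries (chr16:29111367-29112871), 1277 bp inside its nearest end and 179.0 bp from the end of LOC102160325. Its −log10 p ran from 3.30 to 8.39. MRPL4 had one in 10 libraries (chr2:69073229-69074812), 8730 bp from its nearest end. MRPS27 had one in 7 libraries that lay 60.5 bp from the end of PTCD2, and MRPS22 had 2 regions in 1 library each.

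Members were listed in all 4 groups, mostly in the same few replicates. A high fat 200 library listed 12.7 ± 19.1 members (SD, n = 7), and a low fat 200 library 11.6 ± 12.7. In the 600 set these means were 7.14 ± 11.7 for high and 6.43 ± 7.18 for low fat. The high fat 200 libraries ran from 0 over a median of 2 to 42, and the low fat 200 libraries from 0 over 9 to 32. The high fat 600 libraries ran from 0 over 1 to 27, and the low fat 600 libraries from 0 over 4 to 17. The groups overlapped throughout, and the spread within a group exceeded the differences between groups. Under both numbers, replicates 1 and 7 of the high fat and replicates 1, 6 and 7 of the low fat groups held 90.2% of the 265 listings. In each group these were also the libraries that listed the most genes with a symbol. The concentration is therefore not read as a result about the members.

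**Figure D5:**
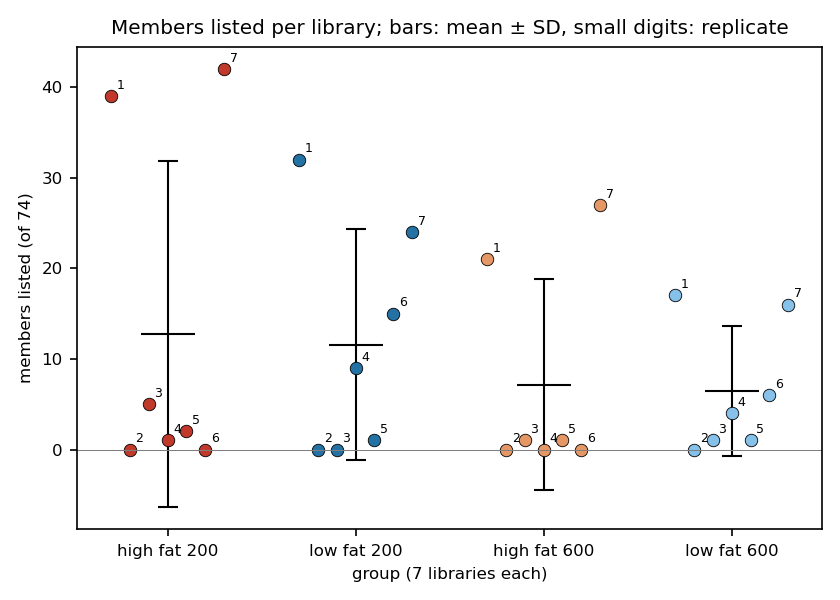
Each point is 1 library, with the number of the 74 members listed at an end on the vertical axis and the 4 groups of 7 libraries on the horizontal axis; small digits give the replicate, wide bars the mean and capped bars the SD. Replicates 1 and 7 are the highest in every group, up to 42 members, and the 4 groups overlap.

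No member passed the test between fat groups. In the 200 libraries 29 members were listed in at least 3 libraries and tested, along with 5025 genes in all. The test was a two-sided Fisher's exact test with Benjamini-Hochberg adjustment over all of them. At an adjusted threshold of 0.05, 0 members were called in either direction, against 0.0% of genes, and at an unadjusted p under 0.05 also 0. With 7 libraries against 7 a gene needs at least 5 against none to reach an unadjusted p of 0.021. The smallest p possible, for 7 against 0, is 0.000583 in the same exact test. After adjustment over 5025 genes it passes only if many genes split that way. High fat 200 replicate 6 listed 19 genes and low fat 200 replicate 2 listed 5, so few genes could. The zeros therefore do not show that the fat groups are alike, here or in the fat comparisons below. High fat libraries listed 7 of the 29 members more often (24.1% against 27.6% of genes), low fat libraries 12 (41.4% against 44.3%), and 10 were equal. The smallest p among members was 0.592 (Fisher's exact test), shared by MRPL15, MRPL18, MRPL2 and MRPS18B, each listed in 2 high fat and 4 low fat libraries. In the other direction MRPL24, MRPL46, MRPL51, MRPS11 and MRPS26 were each listed in 2 high fat and 1 low fat library, and none of these passed.

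In the 600 libraries 17 members were tested, of 2640 genes, and 0 were called, against 0.0% of genes, with 0 at an unadjusted p under 0.05 as well. High fat libraries listed 3 members more often (17.6% against 24.1% of genes) and low fat libraries 7 (41.2% against 40.6%), and 7 were equal (41.2% against 35.3%). MRPS28 had the smallest p, with 2 high fat and 6 low fat libraries, a difference of -57.1 percentage points that did not pass (Fisher's exact test, two-sided, p = 0.103, adjusted p = 1.0). Replicates 1 and 7 listed MRPS28 in both fat groups. The other low fat libraries that listed it, replicates 3, 4, 5 and 6, held 141, 526, 119 and 1325 peaks. With peaks above the median strength the difference was -14.3 points (p = 1.0 in the same exact test). Leaving out 1 library gave -71.4 to -52.4 points, with an unadjusted p of 0.0291 without high fat replicate 1 or 7 and 0.021 without low fat replicate 2 (Fisher's exact test), and an adjusted p of 1.0 in every case. MRPL17 and MRPL50, each in 2 high and 4 low fat libraries, followed at p = 0.592 in the same exact test. MRPL1, MRPL34 and MRPS35 were in 2 high and 1 low fat library.

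With a gene counted for an animal if its 200 or its 600 library listed it, 29 members were tested, of 5274 genes, and 0 were called, against 0.0% of genes, with 0 at an unadjusted p under 0.05. High fat animals listed 4 members more often (13.8% against 27% of genes) and low fat animals 12 (41.4% against 43.6%), and 13 were equal (44.8% against 29.4%). The smallest p, 0.559 for MRPS28, is from the same exact test. Among the 56 listed members 18 were listed in high fat libraries alone, 32.1% against 30.0% of listed genes. Of these 18, 17 were in high fat replicates 1 or 7, which include the libraries with the most peaks, and 12 were in 1 library. In low fat libraries alone 4 were listed, 7.14% against 4.35%, and both fat groups shared 34. These shares stand near the background and are not a result about the members.

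Between the numbers, 200 libraries listed 55 members in at least 1 library (74.3% against 50.4% of genes) and 600 libraries 29 (39.2% against 28.5%). Of 30 members tested, among 5550 genes, 0 were called at an adjusted threshold of 0.05 (Fisher's exact test, 14 libraries against 14), against 0.0% of genes. At an unadjusted p under 0.05, 2 members were listed more often in 200 libraries, 6.67% against 4.09% of genes. These were MRPL15 and MRPL2, in 6 of 14 200 libraries and 0 of 14 600 libraries, the same 6 for both (Fisher's exact test, p = 0.0159, adjusted p = 0.838). This test does not pair the libraries taken as 1 animal. An exact sign test on those pairs also called 0 members and 0 genes. Such zeros do not show that the 200 and 600 libraries are alike. The 200 libraries listed 25 of the 30 members more often (83.3% against 83.7% of genes) and the 600 libraries 5 (16.7% against 6.41%), namely MRPL18, MRPL44, MRPL46, MRPS11 and MRPS6. No member was equal, against 9.91% of genes. Each of these 5 was ahead by 7.14 percentage points, 1 library of 14, and 2 of them share a region. The median difference was -7.14 points for members and -14.3 points for genes. The 200 libraries held more peaks, with a median of 2038.5 against 358, and the part of peak number in this comparison was not tested.

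The 600 listings of members mostly repeated 200 listings. Of 95 member listings in 600 libraries, 86 were also in the 200 library taken as the same animal, 90.5% against 89.5% for all genes. One member, MRPL19, was listed in 600 libraries alone, in high fat replicates 1 and 7, 1.79% of the 56 against 1.86% of listed genes. In 200 libraries alone 27 were listed, 48.2% of the 56 against 44.4% of listed genes. The 16 members listed in 1 library were all from 200 libraries, 9 of them from high fat replicate 7. These 9 were MRPL12, MRPL20, MRPL28, MRPL52, MRPL58, MRPS10, MRPS23, MRPS25 and MRPS33. Leaving out high fat 200 replicate 7 lowered the share listed from 75.7% to 63.5% of members and from 51.3% to 48.8% of genes. Leaving out high fat 200 replicate 1 instead lowered it to 73.0% of members and 46.3% of genes. MRPL58 encodes a peptidyl-tRNA hydrolase that releases stalled ribosomes, and MRPL12 binds at the stalk. High fat 200 replicates 1 and 7, the libraries with the most members, shared 31 members, with 8 in replicate 1 alone and 11 in replicate 7 alone. The remaining single listings were MRPL48 and MRPS31 in high fat replicate 1, MRPL43 in high fat replicate 3, MRPL10, MRPL40 and MRPS24 in low fat replicate 1, and MRPS34 in low fat replicate 7.

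The fat difference was not shown to change between the numbers. For this, the fat labels were exchanged between the 14 animals in an exact permutation test (3432 divisions, two-sided). Of 30 members tested 0 were called and 0 had an unadjusted p under 0.05. Over the 5550 genes 0.0% were called, and 0.0541% and 0.018% had an unadjusted p under 0.05 in the 2 directions. The fat difference (high minus low fat) moved toward high fat from 200 to 600 libraries in 19 members, 63.3% against 44.7% of genes. It moved toward low fat in 10, 33.3% against 29.7%, and was equal in 1, 3.33% against 25.6%. Both directions thus stood above the genes, which had more ties, and no shift of the members is read from this. MRPL30, in 2 high and 3 low fat 200 libraries and in 2 high and 0 low fat 600 libraries, had the smallest p of the exact permutation test, 0.192, at 42.9 points. MRPS28 had -42.9 points (exact permutation p = 0.269). MRPL32, at 28.6 points, and MRPL50, at -28.6 points, had p = 0.462 in the same exact test.

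Other genes of mitochondrial gene expression were listed in at least 1 library about as often as the members, at 71.4% to 83.3% by list against 51.3% of all genes. In at least 3 libraries each list stood above the members' 40.5% and above the 32.4% of all genes. The shares were 45.7% for translation and assembly factors, 63.2% for the synthetases, 50% for transcription and DNA upkeep and 58.3% for regulators. For proteins tied to the mitochondrial ribosome with other symbols the share was 42.9%, which is 3 of 7. Of these 3, OXA1L is also in the list of translation factors. The place of this short list above the members thus rests on 1 gene. Of 35 translation and ribosome assembly factors found in the annotation 27 were listed (77.1%), led by RMND1 and TFB1M in 14 libraries each, then MPV17L2 and RBFA in 12. TFB1M methylates the small ribosomal RNA, and RBFA acts in the maturation of the small subunit. Of 19 mitochondrial aminoacyl-tRNA synthetases, which charge the tRNAs, 15 were listed (78.9%), led by EARS2 in 14 and CARS2 in 12. Of 7 proteins tied to the mitochondrial ribosome without an MRPL or MRPS symbol 5 were listed (71.4%), OXA1L and PTCD3 in 5 libraries and AURKAIP1 in 3. Of 16 genes for mitochondrial transcription and DNA upkeep 12 were listed (75.0%), led by the transcription factor TFB2M in 12, TFAM, which packs mitochondrial DNA, in 9 and the polymerase gene POLG in 8. Of 12 regulators of nuclear genes for mitochondria 10 were listed (83.3%), SP1 in 15, GABPA in 14, and ESRRA and MYC in 9, while PPARGC1A and GABPB1 were not. In the 5 comparisons above 0 genes of any of these lists passed, since 0 of all genes tested did.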

How the data were processed

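ATAC-seq peak lists of 28 libraries (4 groups of 7) were used. Tools named in the submitters' processing notes are BWA, Genrich, Picard, SAMtools and FastQC, with the build Sscrofa11.1; their versions and roles are not given in the sources used here. Per the file headers, the deposited table gives each peak's position, a score (800 to 1000), a signal value, which is the peak's area and at least 400, and a p-value column. The deposited p-value column reaches 7880.9 and so was read as −log10 p. Gaps in the deposited peak numbering show that called peaks were removed by a rule not given in the sources used here. Signal and −log10 p are the authors' values per peak, they move with unknown depth, and they were used to rank and filter peaks. No counts exist in the table, so no counting interval is given.

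Gene ends came from the RefSeq table of Sscrofa11.1, matched by symbol; 10923 genes with LOC names were left out of the background. A gene was listed where a peak centre lay within 1000 bp of an end. Genes listed in at least 3 libraries were tested by Fisher's exact test, two-sided, with Benjamini-Hochberg adjustment over all of them, and the change of the fat difference by exact permutation over animals. The tests were also run on simulated lists in which, apart from planted differences, a gene had the same listing rate in every library. The real libraries differ widely in peak number, so these runs do not give the power of the tests here. Python 3.11.15, pandas 2.3.3 and scipy 1.17.1 were used. The table holds peak lists per library, and the tests were the planned ones for presence.

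Genes named with values were the 12 MRPL and 12 MRPS members listed in most libraries, all members without an end peak, the members with the smallest p of each comparison (at most 5 per direction), the 5 with the strongest peaks and the leading 3 of each list, of which 1 is not reported here; other members are named as neighbours or in counts. The members and lists were chosen with earlier results of these data known. Alternatives were windows of 500, 2500 and 5000 bp, the summit or any overlap, stronger peaks, larger libraries, other backgrounds, no minimum of libraries, a replicate block and leaving out each library. A count of members listed in at least 3 libraries was added after seeing the data. No sequence is printed, since none was in the tables used here.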

Additional observations from a re-analysis of the deposited data

How the results depend on the processing

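Between 41 and 63 members were listed under the other windows, peak positions and the strength filter (56 as reported), and 47 to 56 when 1 library was left out, the lowest without high fat 200 replicate 7. The difference to all genes, 24.3 points, ran from 14.7 to 26.7 when 1 library was left out, and it was 8.18 points for listing in at least 3 libraries, a choice added after seeing the data. Per library the members stood above all genes by 3.8 points in 200 and 2.99 in 600 libraries on average, by 6.29 and 6.15 in libraries with at least 1000 peaks, and by -1.07 and -0.544 with their 1000 strongest peaks. High minus low fat per library was 1.54 points in 200 and 0.965 in 600 libraries, and leaving out 1 library moved it from -5.05 to 6.15 and from -3.51 to 3.35. Of 1389 member tests under alternatives 0 passed, with a lowest adjusted p of 0.364 (exact tests). For all genes the comparison of 600 with 200 libraries called 2 with a window of 2500 bp and 3 with 5000 bp. With peaks above the median strength 9 differences that had not passed a test turned, and the cause was not tested. These were MRPL44 between fat groups in 600 libraries (14.3 points), MRPL18 (-14.3), MRPL44 (-7.14) and MRPS6 (-7.14) between 600 and 200 libraries, and the change of the fat difference for MRPL1 (-14.3), MRPL32 (-14.3), MRPL17 (14.3), MRPL44 (14.3) and MRPL50 (14.3). With the replicate block, 0 members and 0 genes were called in all 5 comparisons; MRPL15 and MRPL2 then had p = 0.0312 (exact sign test, adjusted p = 0.569). The numbers did not pair the libraries by the rule that every pair correlate above 0.1, so 600 and 200 libraries of 1 animal stay an assumption: deviations correlated at -0.0199 to 0.348 (high fat) and 0.0467 to 0.644 (low fat) between 600 and 200 libraries, and at -0.171 to 0.27 (200) and -0.198 to 0.677 (600) between fat groups. In this order 2, 5, 2 and 6 of 7 pairs were above 0.1, and 4, 2, 2 and 2 of 7 libraries correlated best with their own number. A start end alone was not run, since strand was not used here. Sequencing depth is unknown. Of the 56 listed members, 52 appear only in libraries with at least 1000 peaks. The same share of all listed genes was not counted, so this is not read as a trait of the members.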

Other observations

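MRPS12, a small-subunit gene whose model is a long non-coding RNA in this annotation and which was left out of the members for that reason, was listed at an end in 3 libraries, high fat 200 replicates 1 and 7 and high fat 600 replicate 7. In the bodies of listed members, MRPL15 had a region in 8 libraries (chr4:77075085-77076861) that lay 6522.75 bp from its nearest end, and MRPL1 one in 7 libraries (chr8:73343368-73344812) that lay 38784.5 bp from its nearest end. MRPL15 was thus listed in no 600 library at its end, while its body region was in 3 high fat and 3 low fat 200 libraries and in 1 high fat and 1 low fat 600 library.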
